A study of Mus musculus with 15 samples.

Results

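The enteric neural crest-derived cells (ENCDC) of the E11.5 mouse stomach were sequenced from 4 control embryos and 4 embryos with RarαDN, a dominant-negative RARα that blocks signaling by retinoic acid receptors. These 8 libraries were taken by their sample labels from a series of 15, whose other 7 come from E13.5 colon, and 1 stomach gave 1 library. Control embryos carried Wnt1Cre and the ROSA26TdTomato reporter, and RarαDN embryos were RarαDN LoxP/+ with the same driver and the same reporter. The labels give a mixed background for all, whereas the study's methods place these lines on an inbred background. Cells were released with collagenase and dispase and sorted by TdTomato fluorescence. CRE removes a stop cassette and so turns on RarαDN and the reporter in the same cells, and Wnt1Cre is active in the dorsal neural tube and in most derivatives of the neural crest, so the sort gate itself does not select for the enteric lineage. Controls lacked the RarαDN allele, so an effect of the allele itself and of the receptor it encodes cannot be told apart.

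Retinoic acid (RA) is made from vitamin A by retinaldehyde dehydrogenases, carried in the cytoplasm by binding proteins, and sensed by RAR and RXR receptor pairs that sit on DNA and switch nearby genes. Vagal neural crest cells meet RA on their way into the foregut, where they turn on RET and become ENCDC. Other neural crest cells form melanocytes, Schwann cells, and the cartilage, bone and connective tissue of the face, and each of these fates has its own transcription factors and products.

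Library totals ran from 8585739 to 11043148 counts in control ENCDC and from 6428930 to 12121327 counts in RarαDN ENCDC, and 14559 to 14870 against 12510 to 13221 genes had at least 1 count. Levels are CPM, a gene's counts relative to the library total after scaling by TMM (trimmed mean of M values), always given for libraries 1 to 4 of a group in that order. The 11 markers of ENCDC together summed to 3386 to 4954 CPM in control libraries and 1607 to 2362 CPM in RarαDN libraries, and all 11 had counts in both groups. Markers of macrophages and other leukocytes summed to 43.9 to 73.1 CPM in controls and 81.7 to 360.0 CPM in RarαDN libraries, and markers of gut mesenchyme and smooth muscle to 169 to 351 and 289 to 671 CPM. Pericyte and vascular smooth muscle markers summed to 185 to 273 and 415 to 751 CPM, and epithelial markers to 45.8 to 102 and 20.7 to 42.8 CPM. Transcripts of Y-linked genes were present in control 3 and in RarαDN 1 and 2, so both sexes were in each group. Between control libraries the distance over the 500 most variable genes was 19.2 to 32.8, between RarαDN libraries 64 to 77.6, and between the groups 96.2 to 111, so RarαDN libraries varied more among themselves. In sorted bulk cells, fewer cells of a type and less RNA per cell cannot be told apart.

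Promoter sequences are shown for Rarb, whose RA response element is the textbook site of RAR action. They are also shown for 5 pigment cell genes that were higher in RarαDN ENCDC and whose promoters hold TCATGTG or TCACGTG. These 5 do not stand for all higher pigment cell genes, since 4 of the 9 listed ones with a promoter held either motif. The sequences are the RefSeq bases upstream of the transcription start on GRCm38.p6, on the gene's strand, and capitals mark the motif found. For Rarb (chr14:16575477-16575726, minus strand) the capitals mark a direct repeat of 2 hexamers with the 5 bases between them, at bases -53 to -37. For Tyr (chr7:87493513-87493762, minus strand), Dct (chr14:118052247-118052496, minus strand), Trpm1 (chr7:64153585-64153834, plus strand) and Tspan10 (chr11:120442511-120442630, plus strand) they mark TCATGTG, and for Mlph (chr1:90914980-90915099, plus strand) TCACGTG, letters that the melanocyte factor MITF is known to bind. The Mlph and Tspan10 sites and the upstream Dct site are on the opposite strand.
Rarb: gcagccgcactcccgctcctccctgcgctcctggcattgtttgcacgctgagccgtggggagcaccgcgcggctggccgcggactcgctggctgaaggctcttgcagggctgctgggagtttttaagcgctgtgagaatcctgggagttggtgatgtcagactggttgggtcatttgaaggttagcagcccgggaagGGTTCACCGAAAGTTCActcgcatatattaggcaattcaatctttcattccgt
Tyr: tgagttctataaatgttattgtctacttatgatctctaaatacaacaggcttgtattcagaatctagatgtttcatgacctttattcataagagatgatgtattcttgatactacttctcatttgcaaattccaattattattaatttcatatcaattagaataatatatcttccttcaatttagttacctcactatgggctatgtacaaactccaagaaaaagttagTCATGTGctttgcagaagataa
Dct: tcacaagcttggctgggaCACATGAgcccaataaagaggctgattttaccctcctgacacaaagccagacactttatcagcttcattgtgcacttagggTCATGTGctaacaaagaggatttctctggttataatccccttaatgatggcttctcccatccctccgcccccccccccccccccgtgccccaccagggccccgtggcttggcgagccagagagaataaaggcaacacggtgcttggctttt
Trpm1: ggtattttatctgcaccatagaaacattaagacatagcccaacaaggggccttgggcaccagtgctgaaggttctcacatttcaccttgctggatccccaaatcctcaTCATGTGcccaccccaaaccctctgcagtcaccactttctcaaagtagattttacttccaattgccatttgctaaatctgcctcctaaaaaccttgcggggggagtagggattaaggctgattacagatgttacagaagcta
Mlph: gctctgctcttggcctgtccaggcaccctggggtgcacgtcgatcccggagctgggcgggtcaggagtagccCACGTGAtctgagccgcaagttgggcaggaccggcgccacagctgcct
Tspan10: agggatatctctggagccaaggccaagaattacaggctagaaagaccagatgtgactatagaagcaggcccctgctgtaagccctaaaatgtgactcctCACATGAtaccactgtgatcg

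Of 12427 tested genes, 8838 matched a RefSeq promoter by symbol, among them 267 of the 381 higher and 253 of the 364 lower genes described next. Within 250 bases upstream of the start, TCATGTG or TCACGTG on either strand was present in 694 genes (7.85%), in 30 of the 267 higher genes (11.2%) and in 15 of the 253 lower genes (5.93%). The TCATGTG form alone was in 2.20% of all, 4.87% of higher and 1.19% of lower genes. TCACGTG alone was in 5.85% of all, 6.74% of higher and 4.74% of lower genes. Among melanoblast and melanosome genes either form was in 8 of 23 with a promoter, and in 4 of the 9 that were higher. These 4 are only a part of the 30 higher genes above. Direct repeats, on either strand, of the receptor hexamer AGGTCA, of its variant AGTTCA, of the variant GGGTCA or of the variant GGTTCA, in any combination, spaced by 2 bases were in 8 promoters (0.0905%) and spaced by 5 bases in 4 (0.0453%), none of them of a called gene. The palindrome that paired-type homeodomains read, TAAT and ATTA with 3 bases between them, was in 20 promoters (0.226%), of which 1 was of a lower gene and none of a higher gene. A match describes letters in this window only.

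RarαDN ENCDC differed from control ENCDC in 745 of the 12427 tested genes at an edgeR adjusted p under 0.05. Of all tested genes, 3.07% were higher (381) and 2.93% lower (364), and the 4 values of each group did not overlap for 6.71% of genes in the higher direction and 8.96% in the lower direction. The median log2 fold change over all tested genes was -0.05. Loss was more often complete than gain: 99 of the lower genes had no count in any RarαDN library, whereas 7 of the higher genes had no count in any control library. Among all genes, 102 had at least 1 CPM in every control library and none in any RarαDN library, and 7 showed the reverse. RarαDN libraries also had fewer genes with a count, as given above, and the part of this in the genes at 0 was not tested. Calls depended on single libraries. Without control 1, 3 or 4, there were 324, 351 and 363 calls, whereas without control 2 there were 700, and without RarαDN 1 there were 1143. All 8 fits that left out 1 library kept 294 of the 745 calls (39.5%), of which 171 were higher and 123 lower, and for each gene named below the libraries on which its call rested are given.

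**Figure D1:**
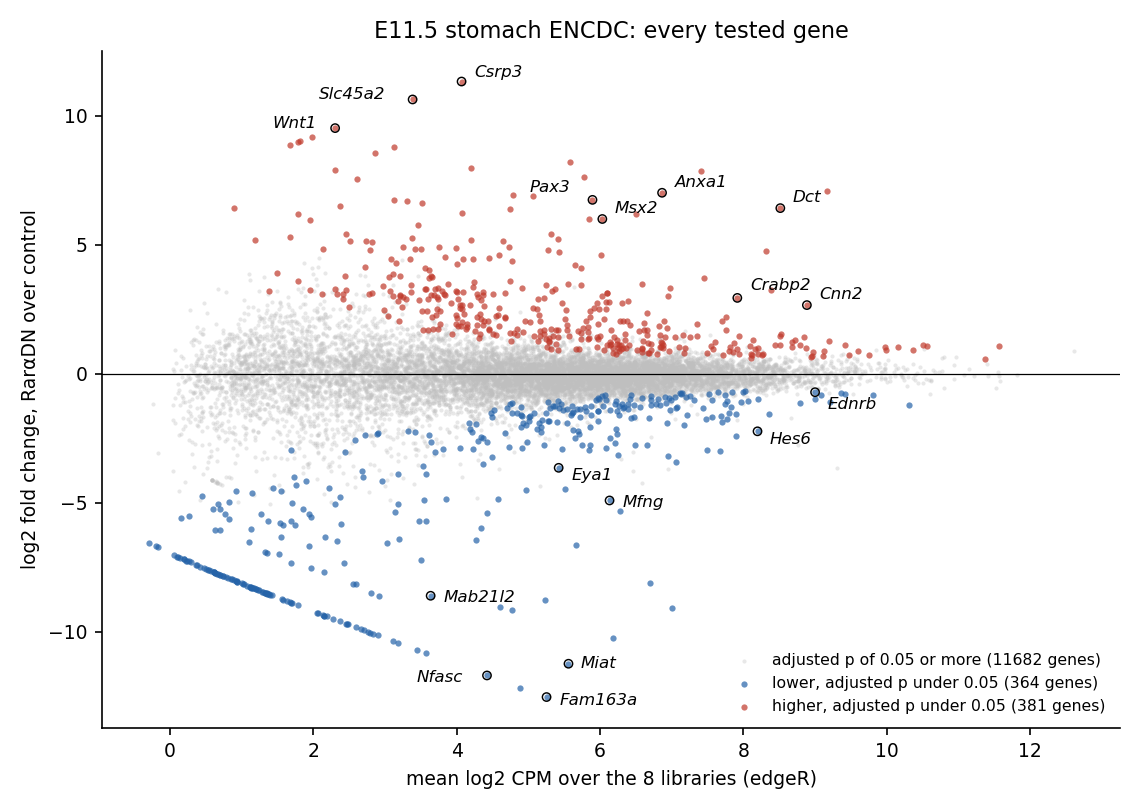
Each point is 1 of 12427 tested genes, with the mean log2 CPM over 8 libraries on the x axis and the edgeR log2 fold change of RarαDN over control ENCDC on the y axis. The 381 higher genes (red) and 364 lower genes (blue) reach similar sizes, and the straight row of blue points at the lower left is genes at 0 in every RarαDN library, whose fitted value depends on edgeR's prior count and is no measured fold.

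Genes of RA signaling were not uniformly lower. The receptor gene Rxrg and the RA-binding protein genes Crabp1 and Crabp2 rose, whereas Rarb, the receptor gene classically induced by RA, was at lower values in every RarαDN library without passing the test. Rarb had 66.1, 79.4, 66.1 and 53.4 CPM in control ENCDC and 28.5, 15.6, 0.153 and 0.821 CPM in RarαDN ENCDC (log2 fold change -2.54 ± 0.98 SE, adjusted p = 0.18 by edgeR). It was nearly absent in RarαDN 3 and 4 and closest to controls in RarαDN 1, with no overlap between the groups, and passed with limma-voom and in the fit of all 15 libraries (adjusted p 0.0387 to 0.0431). Rxrg, which encodes the RXRγ partner of RARs, had 4.1, 7.47, 7.15 and 6.6 CPM in controls and 60.2, 53.4, 61.5 and 103 CPM in RarαDN libraries (log2 fold change 3.46 ± 0.34 SE, adjusted p = 0.000277 by edgeR). Crabp2, whose product delivers RA to nuclear receptors, had 49.4, 78.1, 44.6 and 49.5 CPM (control) and 543, 280.4, 454 and 429 CPM (RarαDN) (log2 fold change 2.94 ± 0.27 SE, adjusted p = 0.000184 by edgeR). Crabp1 had 31.3, 43.6, 23.2 and 21.4 CPM (control) and 97.1, 112, 197 and 94.4 CPM (RarαDN) (log2 fold change 2.06 ± 0.33 SE, adjusted p = 0.00501 by edgeR). Each of these 3 genes was higher in all 4 RarαDN libraries than in any control. Fabp5, a fatty acid-binding protein that can also carry RA, rose by 1.10 on the log2 scale (adjusted p = 0.0182 by edgeR), and its adjusted p was 0.0664 to 0.0775 without control 1, 3 or 4. Aldh1a3, an enzyme that makes RA, rose by 1.39 (adjusted p = 0.0331 by edgeR), and its adjusted p was 0.0577 to 0.110 without any 1 control or RarαDN 4. Of 15 tested RA binding, synthesis and breakdown genes, 4 were higher (26.7%, against 3.07% of all genes) and 0 lower. Their median log2 fold change was 0.31, and 2 were higher without control 1, 3 or 4. Without RarαDN 1 or RarαDN 4, 1 member was lower. Of the 6 RAR and RXR genes only Rxrg passed.

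Hox genes, which give neural crest cells their position along the body and include classical RA targets, were lower where they passed the test. Hoxb5, a regulator of Ret in ENCDC, had 31.9, 55, 22.8 and 23.4 CPM in controls and 1.6, 5.09, 2.61 and 12.6 CPM in RarαDN libraries (log2 fold change -2.6 ± 0.63 SE, adjusted p = 0.0347 by edgeR). Hoxb3, a neighbor in the same cluster, had 6.47, 11.3, 13.5 and 11.4 CPM (control) and 2.16, 3.07, 1.23 and 1.76 CPM (RarαDN) (log2 fold change -2.36 ± 0.58 SE, adjusted p = 0.037 by edgeR). Hoxd1 had 2.46, 4.64, 1.61 and 2.38 CPM in controls and no count in any RarαDN library, at least 34.8-fold lower (adjusted p = 0.017 by edgeR). Their groups did not overlap. Hoxd3 had 153, 124, 170.4 and 209 CPM in controls and 18.9, 28.7, 0.153 and 0 CPM in RarαDN libraries (log2 fold change -3.76 ± 1.12 SE, adjusted p = 0.0786 by edgeR). It was at or near 0 in RarαDN 3 and 4 and between these and controls in RarαDN 1 and 2, and it passed with limma-voom, in the fit of all 15 libraries and with a sex covariate (adjusted p 0.0175 to 0.0293). Meis1, a DNA-binding partner of Hox proteins, fell (log2 fold change -1.18 ± 0.3 SE, adjusted p = 0.0445 by edgeR). None of these 4 calls was stable: the adjusted p of Hoxb5 was 0.0660 to 0.0978 without any 1 control, RarαDN 2 or RarαDN 3, that of Hoxb3 0.0522 to 0.167 without any 1 control, RarαDN 3 or RarαDN 4, that of Hoxd1 0.0536 to 0.0700 without any 1 control, and that of Meis1 0.0584 to 0.126 without any 1 control, RarαDN 1, RarαDN 2 or RarαDN 3. Without RarαDN 4, Hoxb5 fell by 3.42 on the log2 scale. In all, 2 of 6 tested HoxB genes and 1 of 3 HoxD genes were lower (33.3% each, against 2.93% of all genes). None of 5 HoxA or 2 HoxC genes passed.

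**Figure D2:**
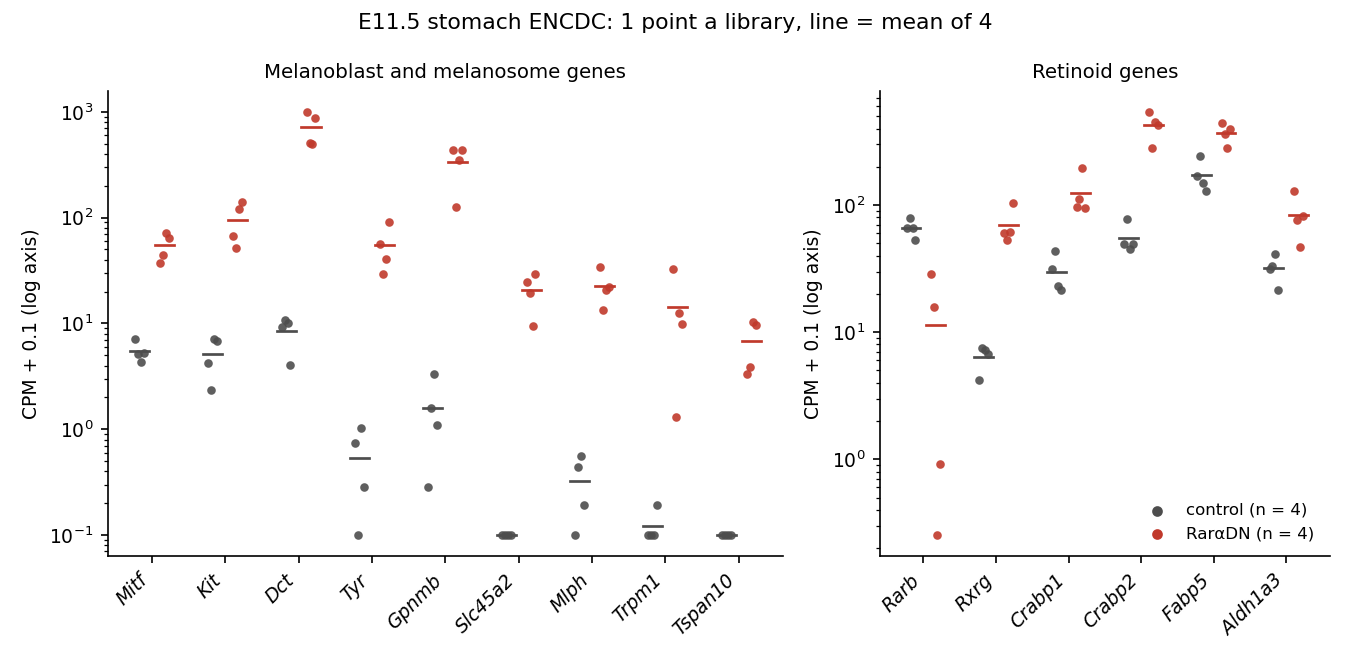
CPM plus 0.1 on a log axis for pigment cell genes (left) and RA genes (right), 1 point per library and a line at the mean of 4 libraries, with control in grey and RarαDN in red. Points at the bottom of the left panel are libraries without a count, and Rarb runs opposite to the other RA genes shown, with RarαDN 3 and 4 near 0.

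The receptors of the GDNF family moved in different directions. GDNF signals through RET and the co-receptor GFRα1 to draw ENCDC along the bowel, and endothelin 3 through EDNRB keeps them proliferating. Gfra1 had 321, 199.8, 369 and 453 CPM in control ENCDC and 108, 123, 53.3 and 115 CPM in RarαDN ENCDC (log2 fold change -1.75 ± 0.31 SE, adjusted p = 0.00812 by edgeR). Ret itself had 881, 442, 1533 and 1811 CPM (control) and 131, 235, 0.613 and 0.117 CPM (RarαDN) (log2 fold change -3.66 ± 1.43 SE, adjusted p = 0.191 by edgeR). RarαDN 1 and 2 kept a part of the control level and RarαDN 3 and 4 were below 1 CPM, so the groups did not overlap but the RarαDN libraries differed widely among themselves. Ret passed with limma-voom and with a sex covariate (adjusted p 0.0378 to 0.0488). In contrast, Gfra3, the co-receptor of artemin, had 7.47, 12, 6.69 and 5.13 CPM (control) and 50.0, 50.2, 50.0 and 139.9 CPM (RarαDN) (log2 fold change 3.21 ± 0.45 SE, adjusted p = 0.00248 by edgeR), with RarαDN 4 well above the other 3 RarαDN libraries and an adjusted p of 0.0711 in the fit of all 15 libraries. Gfra2, the co-receptor of neurturin, rose by 1.36 (adjusted p = 0.0194 by edgeR) and Ednrb fell by 0.71 (adjusted p = 0.0161 by edgeR). The adjusted p of Gfra2 was 0.0542 to 0.0873 without control 1, control 3 or RarαDN 4 and 0.253 in the fit of all 15 libraries, and that of Ednrb 0.0610 to 0.0700 without control 1, 3 or 4. Together 2 of 11 tested genes of this list were higher and 2 lower (18.2% each, against 3.07% and 2.93% of all genes). In each direction 1 kept its call without any 1 library.

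Of 29 tested enteric transcription factors, 10 were lower (34.5%, against 2.93% of all genes) and 0 higher, with a median log2 fold change of -1.89. Of the 10, 7 kept their call without any 1 library. Myt1 and St18, zinc finger genes of neuronal differentiation, had no count in any RarαDN library, against 9.47, 9.85, 15.1 and 19.3 CPM of Myt1 in controls (at least 172-fold lower, adjusted p = 0.00163 by edgeR) and 13.7, 23, 6.0 and 9.9 CPM of St18 (at least 165-fold lower, adjusted p = 0.00278 by edgeR). Mab21l2, a nuclear protein gene of the mab-21 family, had 21.8, 32.9, 19.4 and 23.6 CPM in controls and 2 counts in all, both in RarαDN 2, so that controls were 462-fold higher (95% counting interval 127 to 3818, adjusted p = 0.000252 by edgeR). Without RarαDN 2 the RarαDN group had no Mab21l2 count, so these 3 genes were all but gone from every RarαDN library. Phox2a, a homeobox factor of autonomic neurons, had 5.01, 18.6, 6.0 and 9.9 CPM in controls and 0, 0.242, 0.307 and 0.117 CPM in RarαDN libraries (log2 fold change -5.83 ± 0.99 SE, adjusted p = 0.00683 by edgeR). Eya1, a coactivator and phosphatase of organ development, had 86, 54.7, 71.3 and 104 CPM (control) and 5.07, 15.6, 3.37 and 0.939 CPM (RarαDN) (log2 fold change -3.64 ± 0.67 SE, adjusted p = 0.00997 by edgeR), and fell by 4.65 without RarαDN 2. Tbx3, a T-box repressor, had 227, 111, 202 and 229 CPM (control) and 52.6, 73, 42.3 and 39.9 CPM (RarαDN) (log2 fold change -1.89 ± 0.29 SE, adjusted p = 0.00427 by edgeR). Phox2a, Eya1 and Tbx3 were lower in every RarαDN library than in any control. Hand2, a bHLH factor needed for enteric neuron differentiation, overlapped between the groups, with 38.1, 44.5, 69.6 and 61.5 CPM (control) and 23, 60.3, 20.8 and 22.6 CPM (RarαDN) (log2 fold change -0.75 ± 0.39 SE, adjusted p = 0.33 by edgeR). It passed only without RarαDN 2 (adjusted p 0.0374).

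Of 19 tested transcription factors of the early neural crest, 7 were higher (36.8%, against 3.07% of all genes). In that list 1 was lower (5.26%, against 2.93%), and the median log2 fold change was 1.10. Of the 7, 5 kept their call without any 1 library, and the lower call was lost without control 1, 3 or 4. Msx2, a homeobox gene that responds to BMP in the dorsal neural tube, had 2.0, 2.38, 1.27 and 2.29 CPM in control ENCDC and 127, 184, 129 and 74.3 CPM in RarαDN ENCDC (log2 fold change 6.0 ± 0.38 SE, adjusted p = 1.56e-05 by edgeR). Pax3, a paired-type factor of premigratory crest and of melanoblasts, had 0.638, 0.34, 0.692 and 2.57 CPM (control) and 83.8, 108, 153 and 126 CPM (RarαDN) (log2 fold change 6.74 ± 0.57 SE, adjusted p = 0.000111 by edgeR). Tfap2c, which encodes AP-2γ, had 3.64, 1.02, 4.61 and 3.3 CPM (control) and 26.8, 80.5, 111 and 114 CPM (RarαDN) (log2 fold change 4.71 ± 0.57 SE, adjusted p = 0.000903 by edgeR). All 3 genes were at 4.61 CPM or less in controls and at 26.8 CPM or more in every RarαDN library, with Tfap2c lowest in RarαDN 1. Without control 4, the log2 fold change of Pax3 was 7.68. Tfap2b had 25.5, 28.6, 35.6 and 38.8 CPM (control) and 75.4, 134, 168 and 154 CPM (RarαDN) (log2 fold change 2.05 ± 0.29 SE, adjusted p = 0.00229 by edgeR). Sox9, which acts in crest formation and in skeletal and melanocyte derivatives, had 16.1, 9.17, 14.2 and 16.7 CPM (control) and 26.4, 200.2, 132 and 131 CPM (RarαDN) (log2 fold change 3.12 ± 0.52 SE, adjusted p = 0.00606 by edgeR), with RarαDN 1 nearest to controls and an adjusted p of 0.0505 with limma-voom. The factors SOX10 and FOXD3, which ENCDC progenitors share with early crest, did not pass. Sox10 had 226, 139, 416 and 448 CPM (control) and 197, 568, 573 and 800.2 CPM (RarαDN) (log2 fold change 0.8 ± 0.44 SE, adjusted p = 0.355 by edgeR). Foxd3 had 35.1, 29.4, 97.6 and 88.1 CPM (control) and 46.4, 267, 116 and 214 CPM (RarαDN) (log2 fold change 1.36 ± 0.54 SE, adjusted p = 0.191 by edgeR), and passed only without RarαDN 1 (adjusted p 0.0347). The groups overlapped for both.

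Ectomesenchyme is the facial mesenchyme that neural crest forms. Of 17 tested transcription factor genes of this tissue, 4 were higher (23.5%, against 3.07% of all genes). In that list 1 was lower (5.88%, against 2.93%) and 12 did not pass. Prrx2 had 2.55, 2.94, 0.577 and 1.19 CPM in controls and 152, 53, 47.1 and 58.4 CPM in RarαDN libraries (log2 fold change 5.41 ± 0.61 SE, adjusted p = 0.000528 by edgeR). Alx1, which patterns the frontonasal skeleton, had 6.1, 3.28, 1.96 and 3.58 CPM (control) and 39.2, 19.1, 27.3 and 27.3 CPM (RarαDN) (log2 fold change 2.91 ± 0.46 SE, adjusted p = 0.00476 by edgeR). Foxc1 rose (log2 fold change 4.46 ± 0.87 SE, adjusted p = 0.0124 by edgeR), but its adjusted p was 0.0504 to 0.0541 without control 1 or 4. Prrx2 and Alx1 did not overlap between groups, and Prrx2 was highest in RarαDN 1. The list held 2 higher members without control 1 or 4 and 8 without RarαDN 1, and its lower call was lost without any 1 control, while without RarαDN 1 it held 3. Summed leukocyte and mesenchymal markers were also higher in RarαDN libraries, as given above, and their part in these genes was not tested.

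**Figure D3:**
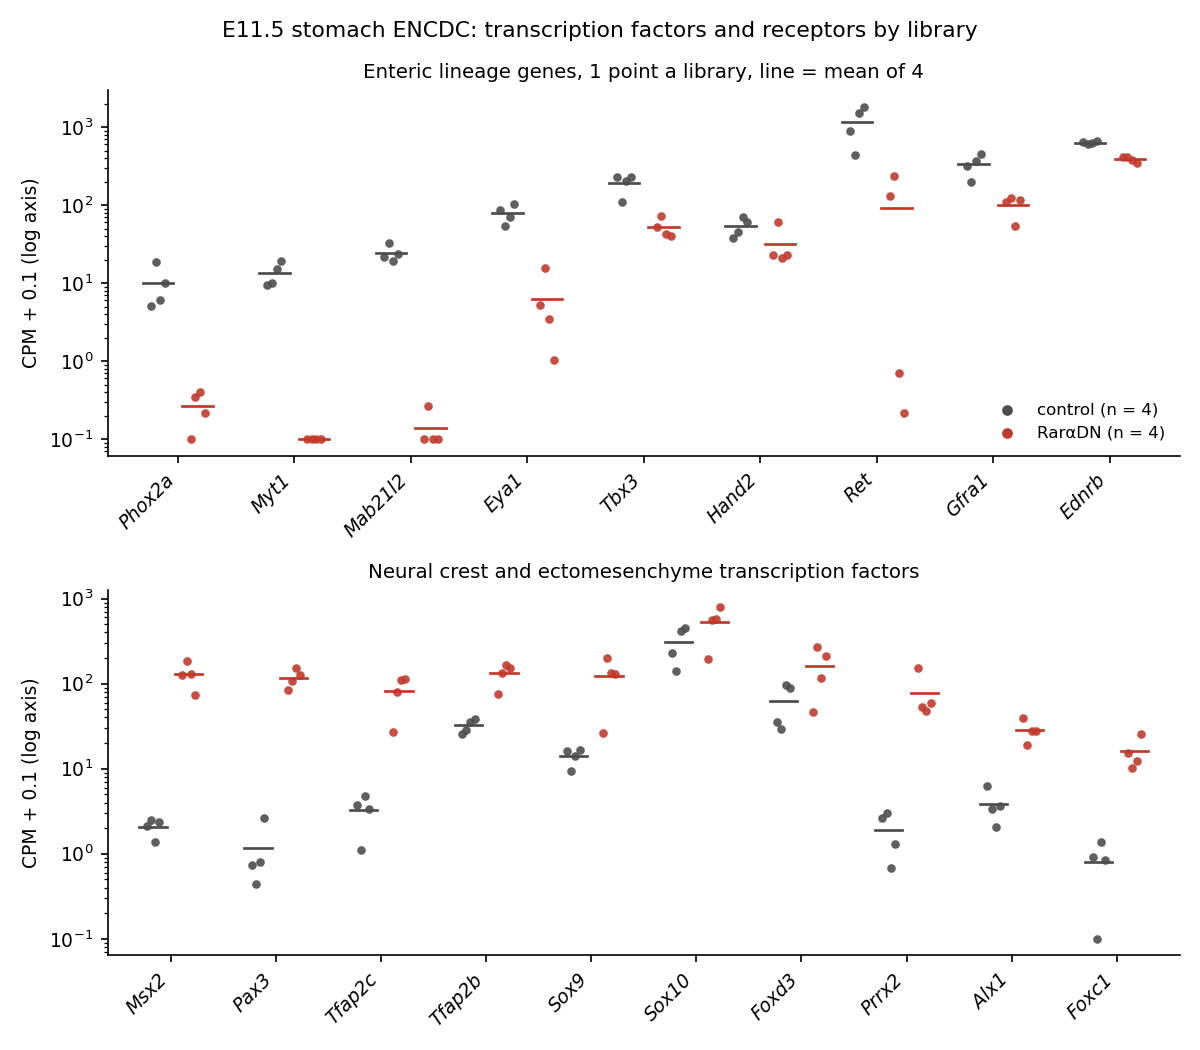
CPM plus 0.1 on a log axis for enteric lineage genes (top) and neural crest and ectomesenchyme transcription factors (bottom), 1 point per library and a line at the mean of 4 libraries, with control in grey and RarαDN in red. Ret spread over more than 1 step of 10 among the RarαDN libraries, whereas Msx2 and Pax3 sit together above 70 CPM in all 4.

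Pigment cell genes were higher in 13 of 28 tested members (46.4%, against 3.07% of all genes). In that list 1 was lower (3.57%, near the 2.93% of all), and the median log2 fold change was 1.62. Of the 13, 11 kept their call without any 1 library, and the lower call was lost without control 1, 3 or 4 and joined by another without RarαDN 1 or 3. Mitf, the master regulator of melanocytes, had 7.01, 5.1, 4.27 and 5.13 CPM in control ENCDC and 37.3, 44, 71.9 and 64.6 CPM in RarαDN ENCDC (log2 fold change 3.33 ± 0.35 SE, adjusted p = 0.000371 by edgeR). Kit, the receptor that melanoblasts need to migrate and survive, had 4.1, 2.26, 7.03 and 6.78 CPM (control) and 66.3, 51.6, 122 and 141 CPM (RarαDN) (log2 fold change 4.23 ± 0.47 SE, adjusted p = 0.000526 by edgeR). Both were present at a low level in controls and higher in all RarαDN libraries. Dct, dopachrome tautomerase, a further enzyme of melanin synthesis, had 9.11, 10.8, 9.92 and 3.94 CPM (control) and 1003, 504, 498 and 883 CPM (RarαDN) (log2 fold change 6.42 ± 0.41 SE, adjusted p = 1.56e-05 by edgeR). It had counts in all 4 controls. Tyr, tyrosinase, the first enzyme of melanin synthesis, had 0.638, 0, 0.922 and 0.183 CPM (control) and 56.5, 29.1, 40.5 and 91.7 CPM (RarαDN) (log2 fold change 6.93 ± 0.76 SE, adjusted p = 0.000478 by edgeR). Gpnmb, a melanosome glycoprotein, had 0.182, 1.47, 3.23 and 1.01 CPM (control) and 439, 127, 348 and 433 CPM (RarαDN) (log2 fold change 7.87 ± 0.69 SE, adjusted p = 0.000152 by edgeR). Slc45a2, a melanosome transporter, had no count in any control and 24.4, 19.2, 9.35 and 29 CPM in RarαDN libraries, at least 278-fold higher (adjusted p = 0.000887 by edgeR). Tyr, Gpnmb and Slc45a2 were absent or at most 3.23 CPM in controls. Trpm1, a cation channel of melanocytes, had 1 count in the 4 controls and 32.9, 1.21, 12.6 and 9.74 CPM in RarαDN libraries, 548-fold higher (95% counting interval 98 to 21691, adjusted p = 0.00439 by edgeR). Its only control count was in control 4, RarαDN 1 held most of the signal, and the fitted log2 fold change was 8.54 with all libraries and 7.74 without RarαDN 1, with an adjusted p of 0.0993 by limma-voom. Tspan10, a tetraspanin outside the list, had no count in controls and 3.19, 3.79, 10.3 and 9.62 CPM in RarαDN libraries, at least 79.3-fold higher (adjusted p = 0.00794 by edgeR). Mlph, which tethers melanosomes to myosin, had 0, 0.34, 0.461 and 0.0917 CPM (control) and 34.2, 13.2, 20.4 and 21.8 CPM (RarαDN) (log2 fold change 6.64 ± 0.83 SE, adjusted p = 0.00105 by edgeR). Without control 3, the log2 fold changes of Gpnmb and Mlph were 8.58 and 7.24. Bace2, a protease outside the list that acts on a melanosome protein, had 1.82, 2.49, 3.46 and 1.1 CPM (control) and 99, 43.8, 101 and 85.8 CPM (RarαDN) (log2 fold change 5.22 ± 0.45 SE, adjusted p = 0.000127 by edgeR).

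Glial and Schwann cell precursor genes did not move as a block. Of 26 tested members 5 were higher (19.2%, against 3.07% of all genes) and 1 lower (3.85%, against 2.93%), with a median log2 fold change of 0.08. Erbb3, the neuregulin receptor of Schwann cell precursors, had 97, 31.4, 256 and 365 CPM (control) and 43.5, 198, 107 and 134 CPM (RarαDN) (log2 fold change -0.64 ± 0.64 SE, adjusted p = 0.644 by edgeR). It overlapped between the groups and did not pass. Mbp, myelin basic protein, by contrast had 4.74, 5.55, 3.46 and 6.33 CPM (control) and 58.5, 170.1, 146 and 121 CPM (RarαDN) (log2 fold change 4.62 ± 0.39 SE, adjusted p = 0.000111 by edgeR). Apoe, a lipid carrier made by glia and macrophages, had 58.2, 114, 36.3 and 43.6 CPM (control) and 678, 659, 373 and 696 CPM (RarαDN) (log2 fold change 3.25 ± 0.38 SE, adjusted p = 0.000682 by edgeR). Cnp, a further myelin gene, had 347, 379.9, 306 and 335 CPM (control) and 174, 173, 153 and 138 CPM (RarαDN) (log2 fold change -1.1 ± 0.16 SE, adjusted p = 0.00359 by edgeR). Thus Mbp and Apoe were higher and Cnp lower without overlap. Leukocyte marker sums, as given above, were also higher, and their part in Apoe was not tested. Without control 1 or 3, 3 members of the list were higher, and without RarαDN 1, 2 were lower.

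Signaling genes that act on neural crest changed in several pathways. Wnt1, made by the dorsal neural tube and the source of the driver's promoter, had no count in any control and 3.66, 17.3, 11.5 and 5.51 CPM in RarαDN libraries, at least 129-fold higher (adjusted p = 0.00599 by edgeR). Both groups carried Wnt1Cre, and whether any Wnt1 reads came from the driver was not tested. Among Wnt receptors, effectors and feedback genes 6 of 38 were higher (15.8%, against 3.07% of all genes). In that list 1 was lower (2.63%, near the 2.93% of all). Nkd2, a feedback inhibitor, had 90.7, 55.9, 77.4 and 101 CPM (control) and 289.7, 267, 409.8 and 377 CPM (RarαDN) (log2 fold change 2.04 ± 0.24 SE, adjusted p = 0.000682 by edgeR). Lef1, a transcriptional effector, had 31.3, 15.1, 24.1 and 30.3 CPM (control) and 72.9, 102, 75.9 and 104 CPM (RarαDN) (log2 fold change 1.81 ± 0.29 SE, adjusted p = 0.00501 by edgeR). The receptor gene Fzd2 had 18.7, 21.9, 29.1 and 28.8 CPM (control) and 47, 121, 118 and 146 CPM (RarαDN) (log2 fold change 2.13 ± 0.35 SE, adjusted p = 0.0057 by edgeR). All 4 genes were higher in every RarαDN library than in any control, while 3 of the 6 higher calls of the list were lost without control 1 and its lower call without any 1 control, RarαDN 2 or RarαDN 3.

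The BMP antagonist genes Fst and Nog rose and the ligand genes Gdf10 and Bmp7 fell. In their list of 39, 5 were higher (12.8%, against 3.07% of all genes) and 4 lower (10.3%, against 2.93%). The median log2 fold change was -0.08. Fst, which encodes follistatin, had 0.729, 0.566, 0 and 0.367 CPM in controls and 12.2, 35.8, 46.3 and 37.8 CPM in RarαDN libraries (log2 fold change 6.24 ± 0.77 SE, adjusted p = 0.000967 by edgeR). Nog, noggin, had 1 count in the 4 controls and 5.63, 25.4, 1.84 and 4.34 CPM in RarαDN libraries, 439-fold higher (95% counting interval 78.3 to 17361, adjusted p = 0.00743 by edgeR), with its control count in control 2 and its highest value in RarαDN 2, without which the fitted log2 fold change was 6.65 in place of 7.91. Smad6, an inhibitor induced by BMP itself, had 5.37, 3.62, 3.0 and 6.97 CPM (control) and 43.2, 58.6, 16.1 and 42.9 CPM (RarαDN) (log2 fold change 3.08 ± 0.47 SE, adjusted p = 0.00426 by edgeR). Each inhibitor was thus higher in all 4 RarαDN libraries. Gdf10, a BMP3-like ligand, had 42.6, 37.1, 35.5 and 42.4 CPM (control) and 2.35, 0, 0 and 0 CPM (RarαDN) (log2 fold change -5.96 ± 1.14 SE, adjusted p = 0.0117 by edgeR), and without RarαDN 1 the RarαDN group had no count. Bmp7 had 142, 75.5, 116 and 125 CPM (control) and 43.6, 50.5, 35.6 and 51.6 CPM (RarαDN) (log2 fold change -1.34 ± 0.25 SE, adjusted p = 0.0106 by edgeR), with an adjusted p of 0.0535 without control 1. Id2, a BMP target, rose by 1.56 on the log2 scale (adjusted p = 0.0122 by edgeR), with an adjusted p of 0.0541 without control 1. Both ligands were lower in every RarαDN library than in any control. The list had 8 higher members without RarαDN 1, and 1 to 2 lower members without control 1, 3 or 4 or RarαDN 3.

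Notch genes that passed were all lower, 3 of 24 (12.5%, against 2.93% of all genes). Hes6, a bHLH factor that promotes neuronal differentiation, had 501, 706, 373 and 351 CPM (control) and 132, 98.6, 82 and 100.0 CPM (RarαDN) (log2 fold change -2.22 ± 0.26 SE, adjusted p = 0.000739 by edgeR). Mfng, a fringe that modifies Notch receptors, had 129, 169, 121 and 122 CPM (control) and 11.5, 3.15, 0 and 2.93 CPM (RarαDN) (log2 fold change -4.9 ± 0.81 SE, adjusted p = 0.0058 by edgeR). Dll1, a ligand of cells that become neurons, had 95.1, 60.0, 92.2 and 101 CPM (control) and 5.45, 0, 1.69 and 8.92 CPM (RarαDN) (log2 fold change -4.44 ± 0.9 SE, adjusted p = 0.0147 by edgeR). None overlapped between the groups. Mfng fell by 5.92 without RarαDN 1, Dll1 by 5.19 without RarαDN 4, and the adjusted p of Dll1 was 0.0510 without control 1. The list had 5 lower members without RarαDN 1 or RarαDN 2. Hhip, a decoy receptor of hedgehog ligands, had 36.8, 24, 40.6 and 44.6 CPM (control) and 4.41, 9.53, 6.59 and 3.05 CPM (RarαDN) (log2 fold change -2.63 ± 0.43 SE, adjusted p = 0.00576 by edgeR), with no overlap and an adjusted p of 0.0646 in the fit of all 15 libraries. Feedback genes of receptor tyrosine kinases did not move as a set. Of 25 tested, 2 were lower (8%, against 2.93% of all genes) and 0 higher (1 without RarαDN 1 or 2). Their median log2 fold change was -0.04, with 13 negative and 12 positive. Dusp6, a phosphatase of ERK, fell by 0.97 (adjusted p = 0.0134 by edgeR), and Spry4, a sprouty inhibitor, fell by 1.91 (adjusted p = 0.0288 by edgeR). Both calls were lost without single libraries: without control 1 or 3 the adjusted p of Dusp6 was 0.0540 to 0.0611, and without control 1, 3 or 4 or RarαDN 4 that of Spry4 was 0.0602 to 0.0991. Fgf13, an intracellular member of the FGF family in neurons, had 123, 148, 105 and 102 CPM (control) and 27.4, 27.6, 17 and 13.7 CPM (RarαDN) (log2 fold change -2.47 ± 0.29 SE, adjusted p = 0.000787 by edgeR).

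Genes of axon guidance and adhesion passed in both directions. In the netrin, slit and related list, 5 of 18 were lower (27.8%, against 2.93% of all genes) and 1 higher (5.56%, against 3.07%). Slit3, a repellent of axons, had 215, 119, 253 and 297 CPM (control) and 13.4, 38, 32.3 and 13.4 CPM (RarαDN) (log2 fold change -3.19 ± 0.42 SE, adjusted p = 0.00169 by edgeR). Rgmb, a repulsive guidance molecule and BMP co-receptor, had 103, 117, 122 and 118 CPM (control) and 25.4, 35.3, 37.9 and 53.4 CPM (RarαDN) (log2 fold change -1.6 ± 0.25 SE, adjusted p = 0.00484 by edgeR). Slitrk6, a neuronal transmembrane protein, had 432, 216, 362 and 415 CPM (control) and 133, 132, 103 and 109.9 CPM (RarαDN) (log2 fold change -1.57 ± 0.23 SE, adjusted p = 0.00349 by edgeR). The groups did not overlap for these 3 genes. The list held 3 lower members without control 1 or 3 and 2 without control 4, and its higher call was lost without any 1 control, RarαDN 2 or RarαDN 4 while without RarαDN 1 it held 2. Of 29 semaphorins, plexins and neuropilins 3 were higher (10.3%, against 3.07% of all genes) and 1 lower (3.45%, near the 2.93% of all). That list held 1 higher member without control 1 or 3 and 5 without RarαDN 1, and 3 and 4 lower members without RarαDN 1 and 2. Plxnc1, a plexin that binds a semaphorin, had 1.09, 0.226, 1.27 and 0.733 CPM (control) and 5.63, 17, 31.4 and 12.9 CPM (RarαDN) (log2 fold change 4.31 ± 0.75 SE, adjusted p = 0.00736 by edgeR), with no overlap and an adjusted p of 0.0547 by limma-voom and 0.0868 in the fit of all 15 libraries. Of 21 adhesion molecules of the immunoglobulin family 3 were lower (14.3%, against 2.93% of all genes). In that list 1 was higher (4.76%, against 3.07%), and 2 without RarαDN 1. The higher gene, Cd200, a membrane glycoprotein that signals to myeloid cells, had 20.4, 22.4, 24.2 and 24 CPM (control) and 634, 497, 722 and 598 CPM (RarαDN) (log2 fold change 4.75 ± 0.2 SE, adjusted p = 1.05e-06 by edgeR). Its adjusted p was the smallest of all tested genes. Nfasc, neurofascin, an adhesion protein of axons, had 28.1, 28.3, 51.4 and 62.1 CPM in controls and no count in any RarαDN library, at least 542-fold lower (adjusted p = 0.000252 by edgeR). Cd9, a tetraspanin, had 239, 364, 208 and 167 CPM (control) and 30.2, 36, 12.4 and 12.2 CPM (RarαDN) (log2 fold change -3.42 ± 0.42 SE, adjusted p = 0.000941 by edgeR). Among secreted signals, 2 of 16 tested chemokine and cytokine genes were higher (12.5%, against 3.07% of all genes) and 0 lower (1 without RarαDN 2). Cxcl10, an interferon-induced chemokine, had 0.82, 0.566, 0.115 and 0.642 CPM (control) and 61.9, 58, 75 and 69.5 CPM (RarαDN) (log2 fold change 6.88 ± 0.47 SE, adjusted p = 2.13e-05 by edgeR). Cxcl14 had 1 count in the 4 controls, in control 4, and 13.4, 19.2, 17.6 and 17.7 CPM in RarαDN libraries, 669-fold higher (95% counting interval 119.7 to 26470.4, adjusted p = 0.000252 by edgeR). Both were at a similar level in all 4 RarαDN libraries.

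**Figure D4:**
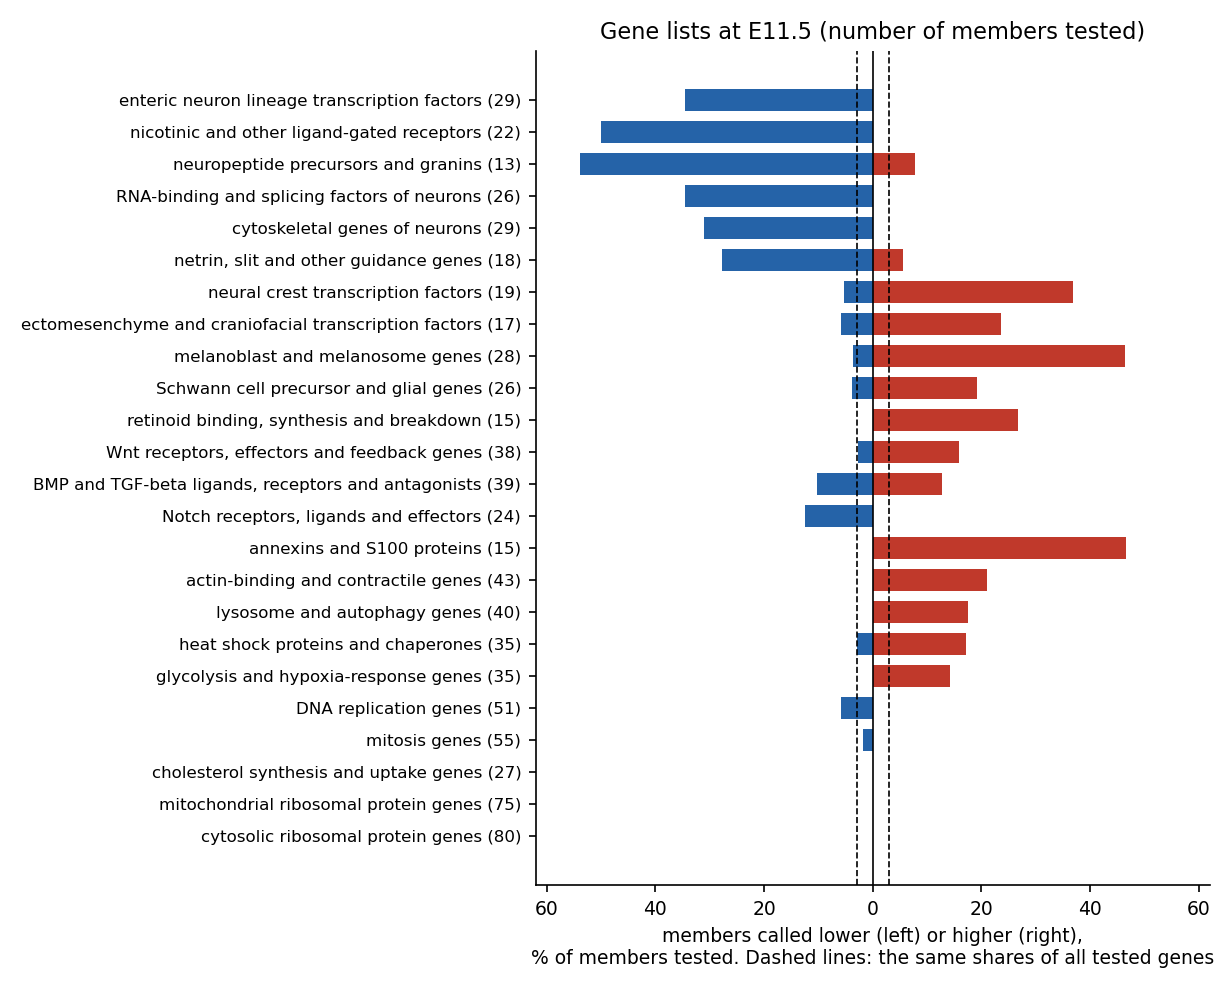
Bars give the percent of tested members of 24 gene lists that were lower (blue, left) or higher (red, right) in RarαDN than in control ENCDC, with the number tested in brackets and dashed lines at the shares of all tested genes, 2.93% and 3.07%. Lists of enteric and neuronal genes extend to the left, pigment, crest, annexin and contractile lists to the right, and the ribosomal protein and cholesterol lists are at 0.

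Contractile, annexin and S100 genes that passed were all higher. Of 43 actin-binding and contractile genes 9 were higher (20.9%, against 3.07% of all genes) and 0 lower (1 without RarαDN 1). Their median log2 fold change was 0.57, and 8 of the 9 kept their call without any 1 library. Cnn2, calponin 2, had 129.6, 134, 125 and 125 CPM (control) and 785, 1123, 676 and 679.7 CPM (RarαDN) (log2 fold change 2.67 ± 0.2 SE, adjusted p = 6.13e-05 by edgeR). Annexins and S100 proteins were higher in 7 of 15 members (46.7%, against 3.07% of all genes) with none lower. Their median was 1.66, and 4 were higher without control 1, 3 or 4. Anxa2 had 21.4, 36.6, 17.9 and 16 CPM (control) and 279, 271, 175 and 187 CPM (RarαDN) (log2 fold change 3.31 ± 0.32 SE, adjusted p = 0.000252 by edgeR). Anxa1, whose protein dampens inflammation, had 1.91, 4.08, 0.115 and 1.01 CPM (control) and 327, 106, 210.2 and 281 CPM (RarαDN) (log2 fold change 7.02 ± 0.71 SE, adjusted p = 0.000322 by edgeR), and a log2 fold change of 7.81 without control 2. S100a11 had 40.5, 65.3, 42.2 and 37.6 CPM (control) and 249.6, 194, 126 and 193 CPM (RarαDN) (log2 fold change 2.04 ± 0.27 SE, adjusted p = 0.00163 by edgeR). None of these 4 genes overlapped between groups. The intermediate filament gene Vim, expressed by most neural crest and mesenchymal cells, rose by 0.94 (adjusted p = 0.00799 by edgeR). Gut mesenchyme markers, whose sums are above, were higher in 2 of 12 tested members (16.7%, against 3.07% of all genes) and lower in 0. Their median was 1.70, and their part in the genes of these lists was not tested. The count of higher markers was 4 without RarαDN 1 and 1 without any other 1 library except RarαDN 2.

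Small heat shock and muscle genes stood out by size. Cryab, a small heat shock protein, had 1.91, 4.87, 0.922 and 2.02 CPM (control) and 363, 188, 71.9 and 92.7 CPM (RarαDN) (log2 fold change 6.2 ± 0.67 SE, adjusted p = 0.000454 by edgeR), and 6.8 without control 2. Its genomic neighbor Hspb2 had 0.273, 0.793, 0 and 0.183 CPM (control) and 121, 134, 69.1 and 55.3 CPM (RarαDN) (log2 fold change 8.21 ± 0.67 SE, adjusted p = 0.000111 by edgeR), and 9.13 without control 2. Csrp3, muscle LIM protein, had no count in any control and 20.1, 36.1, 40.2 and 36.5 CPM in RarαDN libraries, at least 425-fold higher (adjusted p = 0.000252 by edgeR). Controls were at or near 0 for Hspb2 and Csrp3 and at 4.87 CPM or less for Cryab. For each of these genes every RarαDN library was at 20.1 CPM or more. Trim63, a ubiquitin ligase of muscle, had 0, 0.226, 0.346 and 0 CPM (control) and 42.9, 32.1, 31.6 and 38.2 CPM (RarαDN) (log2 fold change 7.97 ± 0.77 SE, adjusted p = 0.000252 by edgeR), and 8.82 without control 3. The 12 markers of skeletal and cardiac muscle summed to 18.9 to 36.3 CPM in controls and 18 to 40.4 CPM in RarαDN libraries, and none of the 4 tested passed (1 was higher without RarαDN 4 and 1 lower without RarαDN 2). Hspa1b, the inducible HSP70, had 1.91, 1.47, 1.61 and 1.93 CPM (control) and 11.3, 423, 9.66 and 8.21 CPM (RarαDN) (log2 fold change 6.02 ± 1.39 SE, adjusted p = 0.0283 by edgeR), with most of the signal in RarαDN 2, and a log2 fold change of 2.48 without it. Its adjusted p was 0.0767 to 0.0978 without any 1 control, and reads of Hspa1b and its near-identical copy Hspa1a may be split. Hspa1b is in a list of immediate early and dissociation genes, where 4 of 31 were higher (12.9%, against 3.07% of all genes) and 0 lower. Its median was 0.73, with 1 higher member without control 1, 3 or 4 and 10 without RarαDN 1. The list summed to 2043 to 2831 CPM in controls and 2374 to 5125 CPM in RarαDN libraries. A part of cell dissociation in these genes was not tested. In all, 6 of 35 heat shock and chaperone genes were higher (17.1%, against 3.07% of all genes) and 1 lower (2.86%, near the 2.93% of all). Of these 35 genes 2 to 3 were higher without any 1 control and 10 without RarαDN 1. The lower call was lost without any 1 control, RarαDN 1 or RarαDN 3.

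Lysosome and autophagy genes were higher in 7 of 40 members (17.5%, against 3.07% of all genes) and lower in 0 (1 without RarαDN 1). Their median was 0.51, and 5 of the 7 kept their call without any 1 library. Grn, progranulin, had 87.6, 94.3, 76.5 and 91.4 CPM (control) and 219, 251, 200.2 and 291 CPM (RarαDN) (log2 fold change 1.46 ± 0.19 SE, adjusted p = 0.00137 by edgeR). Hexa, a lysosomal hexosaminidase, had 72.3, 80.3, 65.6 and 65.8 CPM (control) and 203, 192, 176 and 204 CPM (RarαDN) (log2 fold change 1.45 ± 0.18 SE, adjusted p = 0.000935 by edgeR). Sqstm1, the autophagy receptor p62, had 186, 184, 137 and 142 CPM (control) and 419, 354, 405 and 416 CPM (RarαDN) (log2 fold change 1.3 ± 0.18 SE, adjusted p = 0.00184 by edgeR). All 3 were higher in every RarαDN library than in any control. Macrophages are rich in lysosomes. Of 10 tested leukocyte markers 2 were higher (20%, against 3.07% of all genes) and 0 lower, with a median log2 fold change of 3.53. No marker of the 15 was at 0 in all libraries of either group. The higher markers were C1qa and C1qb, complement genes of macrophages. C1qa had 0.182, 0.793, 0.231 and 0 CPM (control) and 8.64, 11.7, 1.23 and 21.4 CPM (RarαDN) (log2 fold change 5.13 ± 1.17 SE, adjusted p = 0.0257 by edgeR). C1qb had 1.91, 4.19, 0.577 and 0 CPM (control) and 43.3, 79, 16.1 and 65.4 CPM (RarαDN) (log2 fold change 4.94 ± 0.96 SE, adjusted p = 0.0124 by edgeR). Both were higher in every RarαDN library than in any control, but the adjusted p of C1qa was 0.0656 to 0.103 without control 1, 3 or 4 or RarαDN 4 and 0.109 with the replicate block, and that of C1qb was 0.0535 without control 1. Csf1r, which did not pass, had 1.55, 0.793, 0 and 0 CPM in controls and 0.0939, 16.6, 5.52 and 1.17 CPM in RarαDN libraries, and Ptprc was at 0 in 3 controls and in RarαDN 1 and 3. The part of such cells in the lysosomal genes was not tested. The count of higher leukocyte markers was 0 without control 1, 1 without control 3, control 4 or RarαDN 4, and 5 without control 2.

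Several genes of neurons had no or almost no count in RarαDN ENCDC. Fam163a had 70.1, 43.8, 98 and 91.6 CPM in controls and not 1 count in RarαDN libraries, at least 969-fold lower (adjusted p = 0.000111 by edgeR). Btbd17 had 19.3, 29.4, 17.4 and 19.3 CPM in controls and none in RarαDN libraries, at least 268-fold lower (adjusted p = 0.000448 by edgeR). Nap1l2, a histone chaperone of neurons, had 12.4, 35.2, 6.92 and 12.7 CPM in controls and none in RarαDN libraries, at least 208-fold lower (adjusted p = 0.00277 by edgeR). Of these, Btbd17 and Nap1l2 were highest in control 2, and the fitted log2 fold change of Nap1l2, which depends on the prior count, was -10.35 with control 2 and -9.68 without it. Adcyap1r1, the receptor of the neuropeptide PACAP, had 11.2, 15.2, 17.4 and 26.9 CPM in controls and none in RarαDN libraries, at least 226-fold lower (adjusted p = 0.000903 by edgeR). Miat, a long noncoding RNA of neurons, had 69.3, 136, 87.2 and 83.1 CPM in controls and 1 RarαDN count, in RarαDN 1 (0 without it), so that controls were 3504-fold higher (95% counting interval 629 to 138439, adjusted p = 7.04e-06 by edgeR). Rgs4, a regulator of G protein signaling, had 24.1, 129, 29.6 and 32.5 CPM in controls and 3 counts in RarαDN 3 and 4 together, a 651-fold difference (95% counting interval 222 to 3158, adjusted p = 0.000406 by edgeR), again with the highest value in control 2. Its fitted log2 fold change of -9.16 was -8.17 without control 2 and -10.15 without RarαDN 4. Neuropeptide genes split. Gal, galanin, had 145, 463, 139.6 and 76.3 CPM (control) and 0, 0.404, 0.92 and 1.88 CPM (RarαDN) (log2 fold change -8.08 ± 0.89 SE, adjusted p = 0.000483 by edgeR), falling by 7.24 without control 2 and by 9.02 without RarαDN 4, with an adjusted p of 0.0521 by limma-voom. Npy, neuropeptide Y, was the only 1 of 13 neuropeptide and granin genes to rise, with 1.28, 1.59, 0.346 and 0.642 CPM (control) and 48.7, 2.5, 29.9 and 60.8 CPM (RarαDN) (log2 fold change 5.18 ± 0.9 SE, adjusted p = 0.00756 by edgeR), and RarαDN 2 close to controls, and did not pass with limma-voom or the replicate block (adjusted p 0.0588 to 0.246). In that list 7 members were lower (53.8%, against 2.93% of all genes) and 1 higher (7.69%, against 3.07%). All 7 lower members kept their call without any 1 library.

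Genes of DNA replication and mitosis that passed were all lower. Most members had a negative log2 fold change, 39 of 51 and 41 of 55, against 6623 of all 12427 genes. Of 51 DNA replication genes 3 were lower (5.88%, against 2.93% of all genes) and 0 higher, with a median log2 fold change of -0.24. Of 55 mitosis genes 1 was lower (1.82%, below the 2.93% of all genes) and 0 higher, with a median of -0.34. Of 32 cyclins, CDKs and their regulators 3 were higher (9.38%, against 3.07% of all genes) and 2 lower (6.25%, against 2.93%). In that list 1 was higher without control 1, 3 or 4 or RarαDN 4, and 1 lower without control 1 or 4. Cdc25b, a phosphatase that starts mitosis, had 61.7, 75, 103 and 99.6 CPM (control) and 12.7, 14.4, 18.2 and 28 CPM (RarαDN) (log2 fold change -2.21 ± 0.32 SE, adjusted p = 0.00288 by edgeR). Tfdp2, a partner of E2F factors, had 77.9, 83.3, 95.8 and 108 CPM (control) and 39.2, 27.3, 33.1 and 34.7 CPM (RarαDN) (log2 fold change -1.44 ± 0.23 SE, adjusted p = 0.00482 by edgeR). Both were lower in all 4 RarαDN libraries. Ccnd1, cyclin D1, fell by 1.09 (adjusted p = 0.0164 by edgeR), with an adjusted p of 0.0587 to 0.0645 without control 1 or 4, and Mcm6, a replication helicase subunit, fell by 0.73 (adjusted p = 0.0465 by edgeR), with an adjusted p of 0.0663 to 0.166 without control 1, 3 or 4 or RarαDN 2, 3 or 4. The 3 replication calls became 0 without control 1, 3 or 4 or RarαDN 3 and 1 without RarαDN 2 or 4, and the mitosis list had 5 lower members without control 2. Gadd45b, a stress-induced growth arrest gene, had 0, 1.25, 0.346 and 0.917 CPM (control) and 21.7, 86.2, 52 and 49.6 CPM (RarαDN) (log2 fold change 6.37 ± 0.81 SE, adjusted p = 0.00126 by edgeR), and 6.97 without control 2. Among p53 target and DNA damage genes 3 of 25 were higher (12%, against 3.07% of all genes), with 0 lower and a median of -0.09. In that list 1 was lower without control 2 and 2 without RarαDN 3. Plk2, a p53-induced kinase of that list, had 34.3, 33.4, 30.3 and 37.2 CPM (control) and 93, 89.8, 90.0 and 89.2 CPM (RarαDN) (log2 fold change 1.42 ± 0.2 SE, adjusted p = 0.00261 by edgeR). Gadd45b and Plk2 were higher in every RarαDN library than in any control. None of the 80 cytosolic ribosomal protein genes (median 0.49), the 27 cholesterol genes or the 29 integrated stress response genes (median 0.10) passed. Without RarαDN 1, 1 ribosomal protein gene was lower and 1 stress response gene passed in each direction, and without RarαDN 3, 2 ribosomal protein genes were higher. Glycolysis and hypoxia-response genes were higher in 5 of 35 members (14.3%, against 3.07% of all genes) with a median of 0.90. All 5 calls were lost without control 3. That list held 1 higher member without control 1 or 4, 3 without control 2 or RarαDN 2, 9 without RarαDN 1 and 8 without RarαDN 3, and 1 lower member without RarαDN 2. The imprinted growth genes H19 and Igf2 lie side by side. H19 had 13.3, 24.8, 12.6 and 5.59 CPM (control) and 57.6, 71.5, 66.7 and 116 CPM (RarαDN) (log2 fold change 2.47 ± 0.43 SE, adjusted p = 0.00794 by edgeR). Igf2 had 12.4, 14.3, 10.4 and 4.22 CPM (control) and 22.7, 50.0, 42 and 120.0 CPM (RarαDN) (log2 fold change 2.51 ± 0.54 SE, adjusted p = 0.0208 by edgeR). Both were highest in RarαDN 4, without which Igf2 rose by 1.89 and had an adjusted p in the range 0.0550 to 0.0724 that also holds without control 1, 3 or 4.

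Outside the lists, 3 further genes were higher without overlap. Prss12, neurotrypsin, a secreted protease, had 12.8, 16.9, 18 and 15.3 CPM (control) and 154, 169.8, 182 and 198 CPM (RarαDN) (log2 fold change 3.48 ± 0.22 SE, adjusted p = 1.56e-05 by edgeR). Adssl1, an enzyme of the purine nucleotide cycle known from muscle, had 1.55, 1.25, 1.5 and 1.1 CPM (control) and 44.9, 54, 51.8 and 43.4 CPM (RarαDN) (log2 fold change 5.16 ± 0.34 SE, adjusted p = 1.75e-05 by edgeR). Sat1, the enzyme that starts polyamine breakdown, had 24.5, 35.9, 25 and 22.7 CPM (control) and 302, 197, 195 and 183 CPM (RarαDN) (log2 fold change 3.02 ± 0.25 SE, adjusted p = 0.000111 by edgeR), with RarαDN 1 apart from the other RarαDN libraries. In each, every RarαDN library was at 43.4 CPM or more and every control at 35.9 CPM or less.

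To test whether differences varied between the experiments of the series, the E11.5 difference was compared with that of E13.5 colon ENCDC, where 3 embryos expressed RarαDN under RETCreERT2 after tamoxifen and 4 were controls given the same, all with the EYFP reporter. Age, organ, CRE driver, reporter and time since induction differ together and cannot be told apart. The mix of sorted cells may differ too. In the colon, the study found reporter-lineage cells with the erythroid marker TER119 or with CD31, and lower hemoglobin genes with RarαDN. The part of such cells in the differences below was not tested. In 1 fit of 15 libraries, 1950 of 13412 tested genes (14.5%) differed between the experiments in their response. Of these, 966 had a more positive and 984 a more negative difference at E11.5. Without colon RarαDN 1 or 2 the count of 1950 became 1196 or 1259. Among the 745 genes called at E11.5, 538 also differed between the experiments. The interaction value contains the E11.5 difference by which these 745 were selected, so a large overlap follows in part from that choice. The gene with the largest such value among those shown was Sox9, which at E13.5 had 22.8, 20.4, 19.6 and 13.9 CPM in controls and 0.166, 1.99 and 2.66 CPM with RarαDN (log2 fold change -3.5) and so went the opposite way to E11.5 with a difference of the log2 fold changes of 6.65 (adjusted p = 0.000155 by edgeR). Anxa2 at E13.5 had 181, 344, 194 and 102 CPM in controls and 25.9, 35.5 and 27.8 CPM with RarαDN (log2 fold change -2.78), also opposite, with a difference of 6.11 (adjusted p = 3.42e-06 by edgeR). Crabp1 had 43, 93.2, 88.5 and 49 CPM in controls and 17.4, 17 and 5.31 CPM with RarαDN (log2 fold change -2.37), and the difference was 4.45 (adjusted p = 0.00022 by edgeR). All 3 were lower in every RarαDN colon library than in any control colon. Crabp2 had 10.4, 15.4, 25.1 and 12.9 CPM in controls and 10.3, 16.9 and 12.7 CPM with RarαDN there, without passing (log2 fold change -0.25), and differed in response by 3.21 (adjusted p = 0.000207 by edgeR).

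Among genes that fell at E11.5, Nedd9, a scaffold protein of focal adhesions, had 12.3, 9.98, 24.2 and 27.5 CPM in controls and 159, 174 and 199.7 CPM with RarαDN at E13.5 (log2 fold change 3.26), a difference of -6.02 (adjusted p = 2.34e-06 by edgeR). Ednrb had 447, 296, 281 and 369 CPM in controls and 994, 1217 and 937 CPM with RarαDN (log2 fold change 1.59), a difference of -2.28 (adjusted p = 1.30e-05 by edgeR). Slitrk6 had 129, 26.3, 73.8 and 107 CPM in controls and 293, 244 and 205 CPM with RarαDN (log2 fold change 1.55), a difference of -3.1 (adjusted p = 0.000819 by edgeR). These 3 passed in both experiments, lower with RarαDN in stomach and higher with RarαDN in colon. Gfra1 had 182, 205, 155 and 204 CPM in controls and 294, 264 and 312 CPM with RarαDN (log2 fold change 0.64), a difference of -2.36 (adjusted p = 0.000665 by edgeR). Hes6 and Cd9 did not pass at E13.5 (log2 fold changes -0.37 and 0.13), with differences of -1.83 (adjusted p = 0.00203 by edgeR) and -3.53 (adjusted p = 0.000179 by edgeR). Vim, Phlda1 (a pleckstrin-domain gene of growth and survival) and Sat1 rose at E11.5 and had log2 fold changes of -1.01, -2.06 and -1.24 at E13.5. Their differences were 1.97 (adjusted p = 3.76e-05 by edgeR), 5.22 (adjusted p = 1.90e-05 by edgeR) and 4.28 (adjusted p = 5.96e-06 by edgeR).

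**Figure D5:**
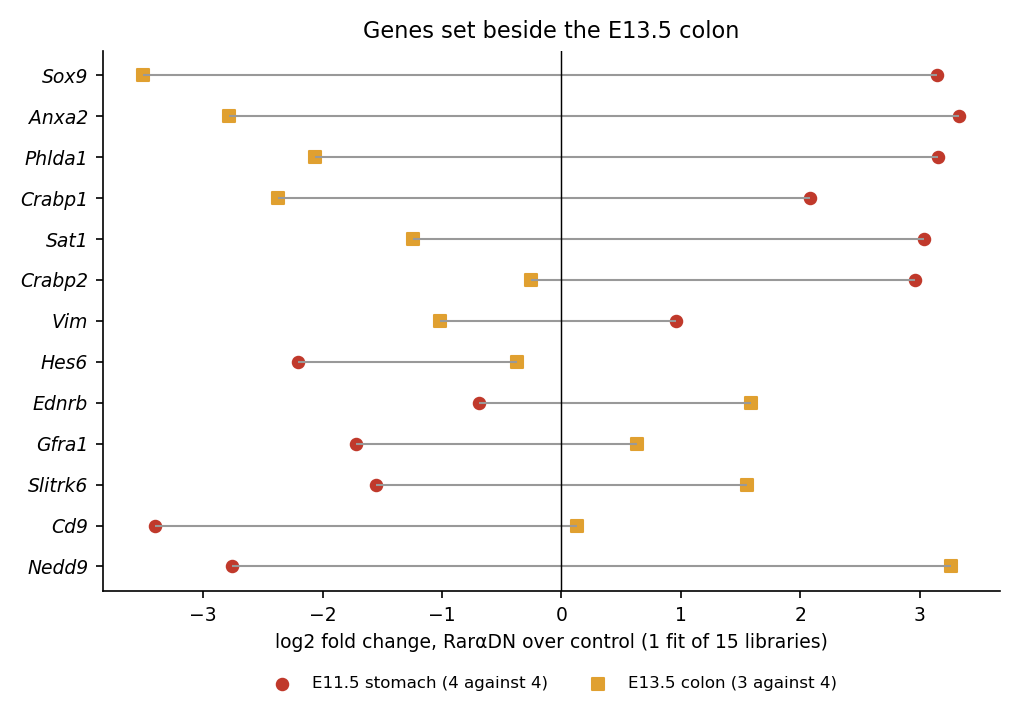
Log2 fold change of RarαDN over control in E11.5 stomach (red circles) and E13.5 colon (orange squares) from 1 edgeR fit of 15 libraries for 13 genes. For 9 of the 13 the signs are opposite and both experiments pass, and the joining lines show the size of the difference that the test addresses. Some of the 13 were chosen by a low interaction p, so these signs do not describe genes at large.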

How the data were processed

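ENCDC of individual organs were profiled by RNA-Seq from SMART-amplified cDNA (Nextera XT libraries, single-end reads, 2 sequencing runs combined per sample). The deposited values are raw counts per RefSeq transcript, which the authors made by removing reads of repeats and ribosomal RNA and mapping with RUM. The genome build, the annotation release and whether Rara includes reads of the RarαDN cassette were not given in the sources used here. Log-scale values and the authors' own comparisons in the same table were not used.

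For each of 17090 genes the transcript with the authors' mark as best was kept. After TMM scaling and the filterByExpr filter, the 8 stomach libraries were compared by the robust quasi-likelihood test of edgeR 4.0.16 (R 4.3.3), with Benjamini-Hochberg adjustment over 12427 genes and a threshold of 0.05. Each SE is the absolute log2 fold change over the square root of the F statistic of that test, and edgeR itself does not report it. The interaction was tested over 15 libraries in 4 groups. Each library comes from 1 organ, and p-values measure the spread between these samples. A group without a count was bounded by 3 counts over the group (0.0762 CPM in controls, 0.0788 CPM in RarαDN libraries). Intervals of ratios are exact at 95%, and intervals and bounds cover counting error only.

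Genes were named from 76 gene lists (up to 3 called members in each direction), the 12 largest changes in each direction among well-expressed genes, genes without a count in a group, and the 6 leading interactions. Of the 109 genes described, 18 were named after their values were seen, among them Mitf, Tyr, Sox9 and Sox10, as were the markers Csf1r and Ptprc. The comparison, the lists and these genes were chosen with earlier results of these data known. Alternatives were DESeq2 1.42.0, limma-voom (limma 3.58.1), other scalings, filters, transcripts and thresholds, a replicate block, a sex covariate and leaving out each library. Scripts were tested on simulated data. Some genes of the lists are not reported here.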

Additional observations from a re-analysis of the deposited data

Results flagged for a closer look

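In groups of 4 libraries, 18 of 210 sets of values held a library whose distance to its nearest neighbor took up more of the group's range than Dixon's critical value at 95%, where chance gives about 1 in 20. Among RarαDN libraries, RarαDN 2 was the highest for Hand2 (60.3 CPM), Nog (25.4 CPM) and Hspa1b (423 CPM), and RarαDN 1 for Prrx2 (152 CPM), Gdf10 (2.35 CPM) and Sat1 (302 CPM). RarαDN 4 was the highest for Rxrg (103 CPM) and Gfra3 (139.9 CPM), and RarαDN 3 was the highest for Crabp1 (197 CPM) and the lowest for Apoe (373 CPM). Among controls, control 2 was the highest for Crabp2 (78.1 CPM), Mfng (169 CPM), S100a11 (65.3 CPM), Btbd17 (29.4 CPM) and Rgs4 (129 CPM) and the lowest for Spry4 (25.4 CPM). Control 4 was the highest for Pax3 (2.57 CPM) and control 3 the lowest for Ccnd1 (513 CPM).

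The RarαDN difference at E11.5 minus that at E13.5, on the log2 scale and by the edgeR interaction test, was positive for Sox9 (6.65), Anxa2 (6.11), Phlda1 (5.22), Crabp1 (4.45), Sat1 (4.28), Crabp2 (3.21) and Vim (1.97). It was negative for Nedd9 (-6.02), Cd9 (-3.53), Slitrk6 (-3.10), Gfra1 (-2.36), Ednrb (-2.28) and Hes6 (-1.83).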

How the results depend on the processing

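No gene named here changed direction past the threshold under any alternative, and 234 of the 745 calls (141 higher, 93 lower) were made under all 19 of them. DESeq2 called 1681 genes (856 higher, 825 lower). A threshold of 0.01 left 269 genes (162 higher, 107 lower) and one of 0.1 gave 1179 (592 higher, 587 lower). Without 1 library the count ran from 324 to 1143, with 190 to 587 higher and 134 to 556 lower, and the interaction count from 1196 to 2341. Besides these and the replicate block, the alternatives stayed within 1.5 times of the reported counts, with limma-voom calling 335 higher and 513 lower genes. The labels number both groups from 1 to 4 without saying that a number is shared. Deviations from the group means correlated at 0.24, -0.20, 0.07 and 0.10 for libraries of the same number, and the replicate block called 350 genes (205 higher, 145 lower), with 15 of the 109 genes described no longer passing, among them Tspan10 (adjusted p 0.0730) and Wnt1 (0.0515). Genes below about 1 CPM are limited by depth, and the cause of the differences between tools was not tested.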
